A study of Mus musculus with 6 samples.

Results

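To ask which transcripts set 1 library of the Ezh2 group apart, 143 of the 55573 genes in the count table were selected on their level in Ezh2 replicate 3. Each member held 100 or more counts in that library, and its scaled count (CPM, each count divided by the library total) exceeded 5 times the CPM of each of the 5 other libraries. The rule passed 148 genes, and 5 whose symbols mark antibody or T cell receptor V segments or chemokine receptors (Trav7n-4, Trav6-3, Trav7-5, Ighv14-4 and Ccr8) were set aside. Because the values of Ezh2 replicate 3 chose the members, their height in that library is a description here and carries no test.

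The libraries came from adult C57BL/6J mice, both sexes being used in the study. An adeno-associated virus (AAV2) carrying GFP, as the control, or Ezh2 was placed in the vitreous. The optic nerve was crushed in both groups 2 weeks later, and cells of the dissociated retina were sorted at 3 days after the crush to enrich retinal ganglion cells (RGCs). There were 3 libraries per group, and neither the labels nor the methods say how many animals entered a library. The gate took cells that carried CD90.2, which Thy1 encodes, and that excluded a dead-cell dye. Besides RGCs, T cells carry Thy1, so the gate admits both. The virus acts on whichever cells it enters.

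Regulatory T cells are lymphocytes that restrain other immune cells. Their lineage factor is Foxp3, and they take up interleukin-2 (IL-2) through a receptor whose alpha chain is Il2ra. Activated regulatory T cells also display receptors of the tumor necrosis factor (TNF) family, among them Tnfrsf4 (OX40), Tnfrsf9 (4-1BB) and Tnfrsf18 (GITR). Some of these genes are shared by other activated T cells, by type 17 cells that make IL-17 and IL-22, and by type 2 lymphocytes that make IL-13.

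Total counts ranged from 30569933 to 35971192, and Ezh2 replicate 3 was the deepest. It nevertheless had the fewest genes with at least 1 count, 25114 against 25727 to 26847 in the others. When the rule was applied to each other library in turn, with the same symbols set aside, it passed 2 genes in GFP replicate 3 and 0 in GFP replicates 1 and 2 and Ezh2 replicates 1 and 2. The reverse pattern was rare. Just 1 gene with 100 or more counts in every other library lay below each of them in Ezh2 replicate 3 by more than 5-fold, and the other libraries had between 0 and 3 such genes. Between Ezh2 replicates 1 and 2, log2 CPM ratios of genes with a mean of 1000 or more counts had an SD of 0.121. Against Ezh2 replicate 3 the SD was 0.363 and 0.396. The delivered gene was checked first. The Ezh2 transcript ranged from 28.8 to 34.6 CPM over the GFP libraries and from 65.3 to 104.8 CPM over the Ezh2 libraries, and the groups did not overlap. The groups also differed in sex-linked transcripts. Xist, which is expressed in females, had 635.1 to 762.7 CPM in GFP and 347.4 to 382.3 CPM in the Ezh2 libraries, and the Y-linked Ddx3y had 29.4 to 31.5 and 42.95 to 51.7 CPM, so the mix of sexes and the carried gene cannot be fully told apart. In both genes Ezh2 replicate 3 lay between replicates 1 and 2.

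Of the 13843 genes with 100 or more counts in Ezh2 replicate 3, 1.07% passed the 5-fold rule before symbols were set aside. The members summed to 3797 CPM in that library, 0.380% of its counts, and to between 301.9 and 416.7 CPM in the others. In Ezh2 replicate 3 the 5 most abundant members held 49.5% of all member counts. These were Gm10800, Il2ra, Irf4, Tnfrsf9 and Tnfrsf4. Most members were scarce. The median was 254 counts in Ezh2 replicate 3 and 21 in the highest other library. In 46 members no other library exceeded 10 counts, and in 5 all other libraries were at 0.

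**Figure D1:**
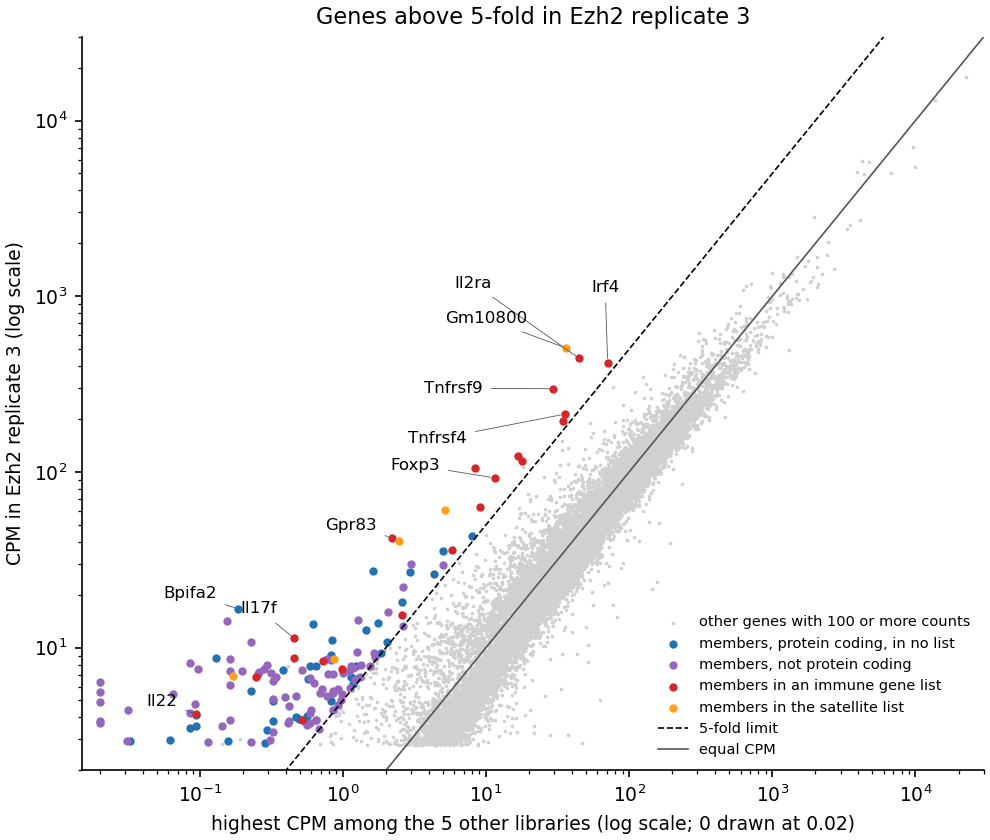
CPM of each gene in Ezh2 replicate 3 (vertical axis, log scale) against its highest CPM among the 5 other libraries (horizontal axis, log scale), for genes with 100 or more counts in Ezh2 replicate 3. The 143 members, colored by class, lie above the dashed 5-fold line by construction, and the receptor genes sit at the abundant end while most members lie below 10 CPM.

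The promoters of 3 leading members are given first, since Foxp3, Il2ra and Tnfrsf9 are the genes by which the cell source is read below. They are RefSeq windows from 250 bases before to 50 bases after a transcription start (GRCm38.p6), all on the plus strand, at chrX:7580233-7580532 for Foxp3, chr2:11642542-11642841 for Il2ra and chr4:150927749-150928048 for Tnfrsf9. Capitals mark matches on either strand to TGANTCA, the letters of AP-1 sites, or TTCNNNGAA, those of STAT factors.
Foxp3: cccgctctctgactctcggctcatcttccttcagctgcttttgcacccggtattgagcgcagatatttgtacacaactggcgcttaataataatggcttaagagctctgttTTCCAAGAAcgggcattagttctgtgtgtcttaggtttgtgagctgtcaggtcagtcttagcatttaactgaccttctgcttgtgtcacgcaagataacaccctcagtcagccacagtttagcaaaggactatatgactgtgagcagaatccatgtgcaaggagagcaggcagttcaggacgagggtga
Il2ra: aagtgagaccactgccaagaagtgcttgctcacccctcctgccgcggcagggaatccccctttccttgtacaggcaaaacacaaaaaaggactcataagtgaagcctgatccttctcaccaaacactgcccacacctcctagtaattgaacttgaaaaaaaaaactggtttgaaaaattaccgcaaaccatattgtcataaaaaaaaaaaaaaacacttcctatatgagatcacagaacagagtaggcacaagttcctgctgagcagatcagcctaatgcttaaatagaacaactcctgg
Tnfrsf9: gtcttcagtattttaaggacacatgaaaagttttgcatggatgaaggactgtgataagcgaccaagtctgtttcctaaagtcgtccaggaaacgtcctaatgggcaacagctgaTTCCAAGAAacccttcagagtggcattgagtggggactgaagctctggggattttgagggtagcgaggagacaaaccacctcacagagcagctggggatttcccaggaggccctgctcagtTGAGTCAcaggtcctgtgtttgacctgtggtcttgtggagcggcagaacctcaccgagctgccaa
Foxp3 and Tnfrsf9 each hold TTCCAAGAA, and Tnfrsf9 also holds TGAGTCA. Neither motif stands in the Il2ra window. The tables give a further window for Foxp3 (chrX:7579426-7579725) and for Tnfrsf9 (chr4:150919905-150920204), and these hold neither motif. Promoters were known for 62 of the 143 members. Of these, 9.68% held TTCNNNGAA in at least 1 window, beside 9.55% of the 27025 genes with a window. TGANTCA stood in 11.3% of the members and 8.97% of all genes. GGGCGG (43.5% against 38.2%) and TATAAA (17.7% against 15.7%) were likewise about as frequent in the members as in all genes. Matching letters do not show that a factor was bound.

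The genes of the IL-2 receptor and of regulatory T cells come first, since the question is the source of the transcripts. Il2ra (ENSMUSG00000026770, chromosome 2, 11642807 to 11693193, plus strand, GRCm38) stood in GFP replicates 1 to 3 at 34.1, 32.8 and 31.5 CPM, at 44.8 and 29.8 CPM in Ezh2 replicates 1 and 2, and at 442.2 CPM in Ezh2 replicate 3. Foxp3 (ENSMUSG00000039521, chromosome X, 7573644 to 7595245, plus strand) stood at 10.73, 10.65 and 9.50 CPM in GFP, at 11.5 and 9.02 CPM in Ezh2 replicates 1 and 2, and at 92.4 CPM in Ezh2 replicate 3. Both genes were thus present in every library, and the GFP libraries lay between Ezh2 replicates 1 and 2. The exact 95% Poisson interval of the Foxp3 level in Ezh2 replicate 3 was 89.3 to 95.6 CPM, which covers counting error only.

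Lrrc32, which anchors latent TGF-beta on regulatory T cells, had 11.4, 13.9 and 11.8 CPM in GFP, 16.8 and 12.7 CPM in Ezh2 replicates 1 and 2, and 123.5 CPM in Ezh2 replicate 3. Gpr83, a receptor gene enriched in regulatory T cells, had 0.949, 0.727 and 0.423 CPM in GFP, 2.21 and 1.11 CPM in Ezh2 replicates 1 and 2, and 42.1 CPM in Ezh2 replicate 3. This was the largest ratio of this group, 19.1 times the highest other library. In Gpr83 both Ezh2 replicates 1 and 2 lay above all GFP libraries, though far below Ezh2 replicate 3.

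Of 28 TNF receptor genes, 26 had a mean of 10 or more counts and 4 were members. Tnfrsf9 had 23.1, 20.5 and 19.7 CPM in GFP, 29.5 and 21.5 CPM in Ezh2 replicates 1 and 2, and 297.7 CPM in Ezh2 replicate 3. Tnfrsf4 had 31.7, 26.7 and 26.7 CPM in GFP, 35.4 and 31.03 CPM in Ezh2 replicates 1 and 2, and 213.0 CPM in Ezh2 replicate 3. Both receptors lift NF-kappaB signaling in activated T cells, and in both Ezh2 replicate 1 was the highest of the 5 other libraries. Tnfrsf18, which lies beside Tnfrsf4 on chromosome 4, had 24.5 to 34.7 CPM in the 5 others and 193.8 CPM in Ezh2 replicate 3. Tnfrsf8 (CD30) had 4.02 to 8.42 CPM in the others and 104.6 CPM in Ezh2 replicate 3. The ligand of CD30, Tnfsf8, was the only member among 17 measured TNF ligands, at 12.95 to 17.8 CPM in the others and 115.8 CPM in Ezh2 replicate 3. The median of the TNF receptor list was 0.12 on the log2 scale relative to Ezh2 replicates 1 and 2, and the receptors Tnfrsf1a and Ltbr, which are no members, were 0.759 and 0.748 times the mean of those libraries.

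Among transcription factors, Irf4, which acts in activated lymphocytes and plasma cells, had 52.4, 58.5 and 54.2 CPM in GFP, 70.8 and 63.3 CPM in Ezh2 replicates 1 and 2, and 419.4 CPM in Ezh2 replicate 3. Gata3, the factor of type 2 lymphocytes that is also used by tissue regulatory T cells, had 143 to 187 counts in the 5 others and 1295 in Ezh2 replicate 3. Il1rl1, the receptor for the alarmin IL-33, had 5.80 to 9.13 CPM in the others and 63.2 CPM in Ezh2 replicate 3. The rule set the gap to the other libraries in these 3 genes. Their ratios to the highest other library were 5.93 for Irf4, 6.20 for Gata3 and 6.93 for Il1rl1.

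Cytokine members were less abundant and nearly empty elsewhere. Il17f had counts of 0, 0 and 1 in GFP, 9 and 16 in Ezh2 replicates 1 and 2, and 406 in Ezh2 replicate 3. Il17a had 30, 13 and 9 counts in GFP, 26 and 7 in Ezh2 replicates 1 and 2, and 270 in Ezh2 replicate 3. These neighbors on chromosome 1 both encode effector cytokines of type 17 lymphocytes. Il22 had 150 counts in Ezh2 replicate 3, 3 in GFP replicate 2 and 0 in the other 4 libraries, a ratio of 44.0 with a 95% counting interval of 14.8 to 215.7. Il13, made by type 2 lymphocytes, had 244 counts beside 2 to 8 in the others, and Csf2, which encodes GM-CSF, had 315 beside 3 to 14. These cytokines are not typical of the regulatory T cell lineage. Il4, a type 2 cytokine gene that is no member, had 1 count in Ezh2 replicate 3 and 0 to 10 in the others. Il5, likewise of type 2 and no member, had 44 counts beside 1 to 6, which is 7.14 times its highest other library in CPM and short of the 100 counts that the rule asked for.

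**Figure D2:**
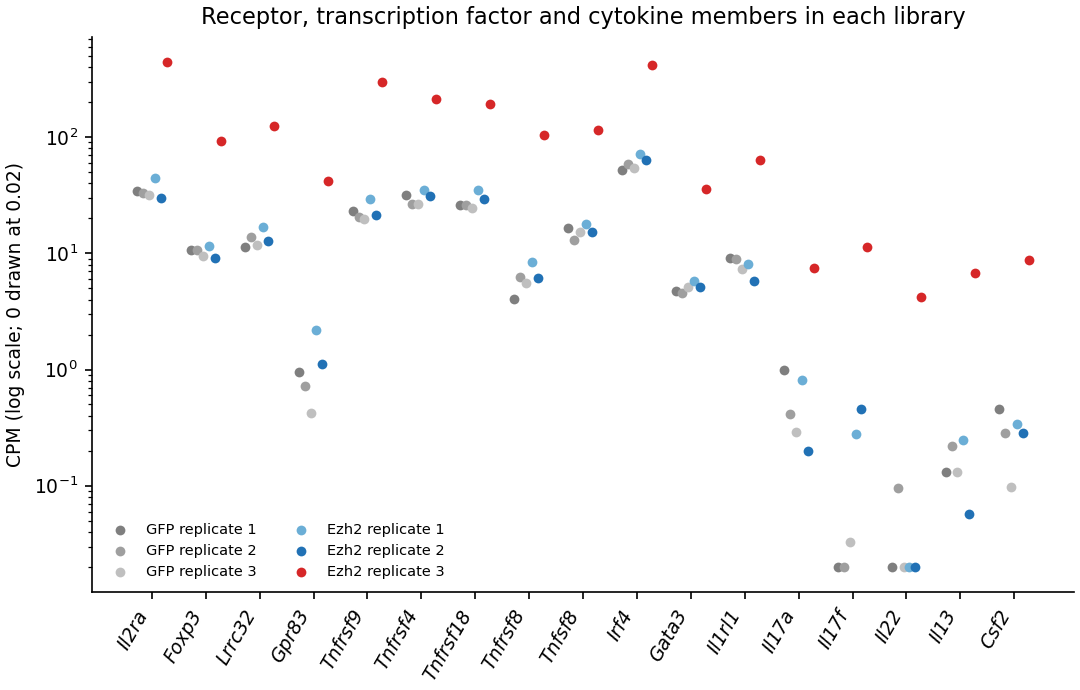
CPM of 17 members (log scale, 0 drawn at 0.02) with 1 point for each of the 6 libraries. In every gene shown the red point of Ezh2 replicate 3 is above the 5 others, which was the condition of choice, and the receptor genes are measurable in all libraries while the cytokines reach at most 0.981 CPM outside Ezh2 replicate 3.

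The cell source was described with lists of marker genes, as the median log2 ratio of CPM in Ezh2 replicate 3 to the mean of Ezh2 replicates 1 and 2 (prior count of 2). Over all 19696 genes with a mean of 10 or more counts this median was -0.10. In the same set, 3.19% of genes were over 2-fold above each other library and 1.47% were below 0.5 times each. Of the 22 regulatory T cell core genes, 7 were members, 15 exceeded each other library over 2-fold and the median was 1.79. Since the members were chosen in this library, that list is no independent evidence of a source. Outside the members, Ctla4, which blocks costimulation, was 4.95 times its highest other library and narrowly missed the rule. Ikzf2, a factor of regulatory T cells, was 3.92 times its highest other library, and Icos was 2.42 times. Ctla4, Ikzf2 and Icos were named with their values known. Every member is over 2-fold by the rule and 15 of the 22 core genes were. The 15 include all 7 members, so the core genes outside the members were divided between genes over 2-fold and genes that were not. The list of effector and tissue regulatory T cells had 5 of 20 genes over 2-fold above each other library and a median of 0.57. Of 29 costimulatory and inhibitory receptors 7 were over 2-fold (median 0.25), of 42 activation transcription factors 8 (median 0.23), of 28 interleukins and cytokines 10 (median 0.70) and of 27 NF-kappaB genes 2 (median 0.36).

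The 27 pan T cell genes held 0 members, and 9 of them exceeded each other library over 2-fold, with a median of 0.70. Among these 9, Cd2 had 189.2 CPM in Ezh2 replicate 3 beside 41.9 to 53.0 CPM in the others, and Trbc1 had 93.35 beside 23.4 to 32.2 CPM. The genes that follow were not over 2-fold. Cd3e had 89.2 CPM in Ezh2 replicate 3 beside 37.6 to 51.0 CPM in the others, whereas Cd3g had 83.4 beside 56.7 to 81.5 CPM. Cd4 had 152.6 CPM beside 93.6 to 116.3 CPM. Cd8a, which marks cytotoxic T cells, had 37.9 CPM in Ezh2 replicate 3, between the GFP libraries (16.98 to 18.7 CPM) and the other Ezh2 libraries (44.5 and 46.2 CPM). Thy1, the basis of the sort, had 113.8 CPM beside 87.2 to 108.8 CPM. The list of naive and resting T cells held 0 members. Of its 14 genes 6 were over 2-fold above each other library, with a median of 0.66.

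On the length-corrected scale of TPM (counts per base of exon, scaled to an equal sum in each library), Foxp3 was 25.7% of the summed Cd3d, Cd3e and Cd3g in Ezh2 replicate 3, and between 3.69% and 5.38% in the other libraries. Il2ra was 98.7% of the same sum, against 9.75% to 13.6%. The regulatory T cell core list was 101.2% of the pan T cell list, against 46.5% to 51.25%. Foxp3, Il2ra and 7 genes of the core list were chosen for their height in this library, so these shares are a description. In bulk libraries more cells of a type and more RNA per cell cannot be told apart.

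The group 2 innate lymphoid list had 3 members (Il1rl1, Gata3 and Il13) among 12 genes. Its median was 0.12, but 0.98 against the GFP libraries and -0.012 without Ezh2 replicate 1. Within it Rora, its most abundant gene, had 88.8 CPM in Ezh2 replicate 3 beside 99.6 to 118.0 CPM. The list of gamma delta and type 17 lymphocytes had Il17a, Il17f and Il22 among 13 genes and a median of 0.53, and its most abundant genes Zbtb16 and Maf had 90.5 and 106.8 CPM beside ranges of 92.1 to 114.4 and 66.6 to 92.6 CPM. Gzmc, a granzyme, was the only member among 15 cytotoxic and NK cell genes. Their median was -0.10, but 0.45 against the GFP libraries and 0.028 without Ezh2 replicate 1. Gzmb, the most abundant gene of that list, had 86.2 CPM in Ezh2 replicate 3 beside 29.4 to 39.35 CPM, and Nkg7 had 37.0 beside 29.2 to 42.1 CPM.

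Against Ezh2 replicates 1 and 2, medians were -0.44 for macrophages and monocytes, -0.56 for microglia, -0.39 for dendritic cells and -0.38 for B cells, with 0 members in each. Against the GFP libraries the macrophage and monocyte median turned to 0.15, and the others were -0.43, -0.34 and -0.094. In the plasma cell list (median -0.21, and 0.035 against GFP) the members were Irf4 and Ighg1, while its leading genes Igha and Ighm had 958.1 and 564.9 CPM beside 1368 to 1756 and 441.3 to 658.8 CPM. Of the mast cell and basophil list just Kit and Hdc had a mean of 10 or more counts. Hdc, which makes histamine, was a member at 8.34 CPM beside 0.294 to 0.727 CPM. The neutrophil list held 2 such genes, with a median of -0.615, and the erythrocyte list none. Lyz2, the leading macrophage gene, had 1223 CPM beside 329.2 to 379.5 CPM in GFP and 1406 and 1868 CPM in Ezh2 replicates 1 and 2.

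The RGC label was checked against its markers. The 16 RGC genes, with Thy1 among them, summed to between 280.3 and 302.1 CPM in all 6 libraries, and 14 reached a mean of 10 counts. Pou4f1, a defining RGC factor, had 0 to 0.600 CPM. Rbpms, the marker by which the study counted RGCs, had 16.4 to 20.8 CPM over the 6 libraries, and Nefl had 9.42 to 15.4 CPM. Thy1, which T cells share, gave 87.2 to 113.8 CPM of the sum. Jam2 had 63.97 CPM in Ezh2 replicate 3 beside 81.6 to 105.0 CPM in the others. The Müller glia and astrocyte list summed to between 31330 and 33470 CPM in the 5 other libraries and to 25950 CPM in Ezh2 replicate 3. The endothelial and mural list summed to between 3358 and 3778 CPM in the 5 others and to 2689 CPM in Ezh2 replicate 3. Pan T cell genes summed to between 1333 and 1802 CPM in the 5 others and to 3065 CPM in Ezh2 replicate 3. The rod and cone lists had medians of -0.74 and -0.69, and the RGC list had 0.04. Against the GFP libraries the rod median was -0.33, the cone median turned to 0.28 and the RGC median was 0.60. The part of these shifts in the height of the members was not tested.

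**Figure D3:**
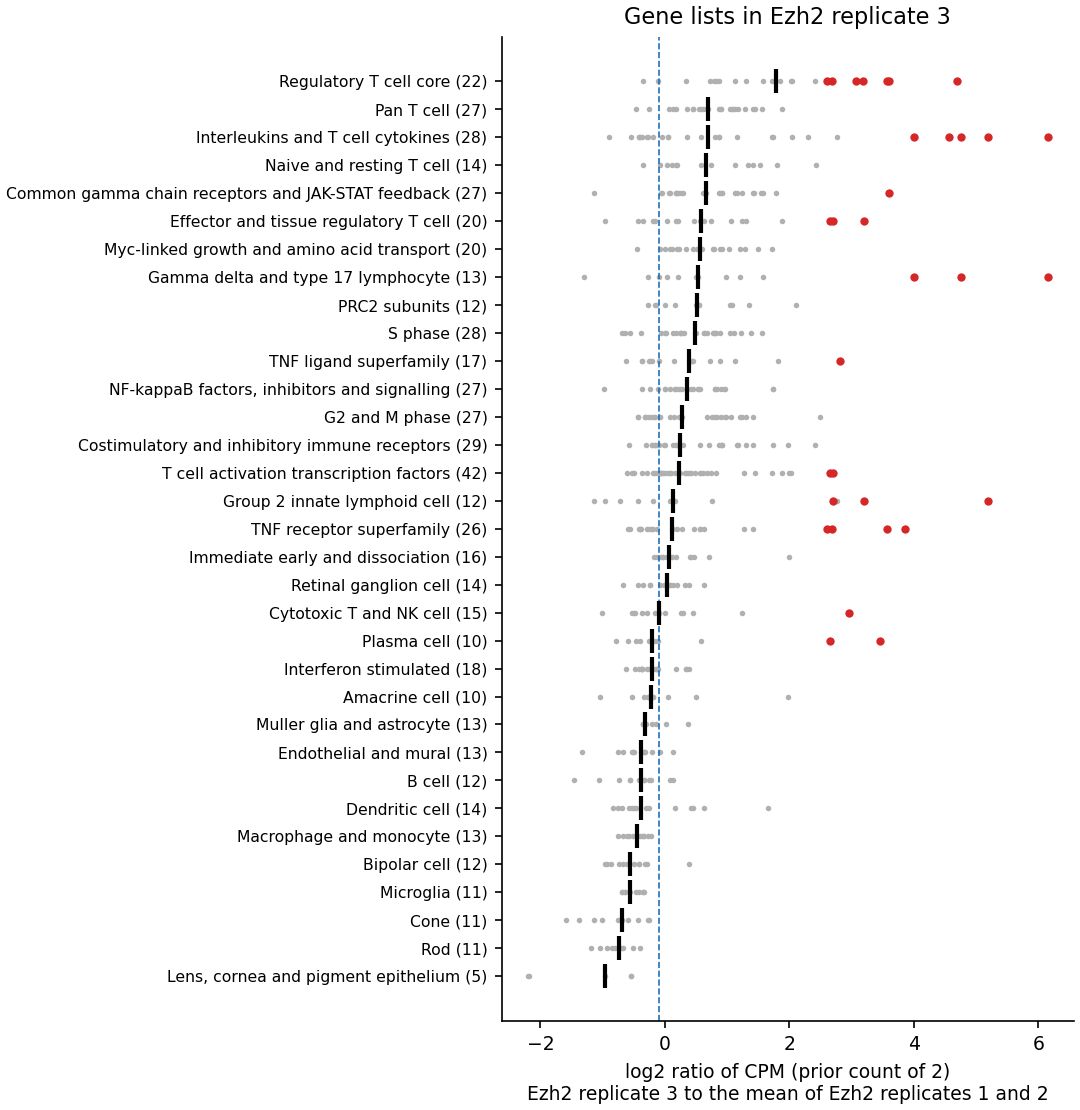
Log2 ratio of CPM in Ezh2 replicate 3 to the mean of Ezh2 replicates 1 and 2 for each gene of 33 lists with 5 or more measured genes, the satellite and sex-linked lists being left out (gray points, members red, the number of genes in parentheses). Black marks are list medians and the dashed line is the median of all genes, -0.10. Of the lists drawn, the regulatory T cell core has the highest median, 1.79, and the pan T cell, cell cycle and growth lists lie right of the line while the rod, cone and myeloid lists lie left of it.

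Genes of cell division and growth were read in the same way. Of 28 S phase genes, 4 exceeded each other library over 2-fold (median 0.49), and of 27 G2 and M phase genes 5 did (median 0.28). Cenpe, which encodes a kinetochore motor, was 4.97 times its highest other library and lay just outside the rule. Of 20 genes linked to Myc and growth, 4 exceeded each other library over 2-fold (median 0.56), and Myc was 3.28 times the mean of Ezh2 replicates 1 and 2. Of 18 interferon-stimulated genes 0 did (median -0.21). Of 27 genes of the common gamma chain receptors and their JAK-STAT feedback, 9 were over 2-fold above each other library, among them Cish, a feedback inhibitor induced by IL-2.

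The 5-fold limit cuts through the ratios where they show no gap. Just inside it were Slc35f2 (5.01 times the highest other library), 4930417O13Rik (5.03), Snord58b (5.03) and E430014B02Rik (5.04). Just outside were Gm48286 (4.995), Cenpe, Gm47324 (4.97) and 1810034E14Rik (4.96). Across the members the median ratio was 10.1.

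By gene type the members differed from the genes they were drawn from. Of the 143, 62 were protein coding (43.4%), against 91.4% of genes with 100 or more counts in Ezh2 replicate 3 after the same symbols were set aside. The remaining 81 comprised 28 long noncoding RNAs, 20 TEC models (transcribed loci whose status is still open in the annotation), 20 pseudogenes, 8 small RNAs and 5 receptor or antibody segments. Members made up 0.494% of coding genes, 5.23% of long noncoding RNAs, 12.5% of pseudogenes and 14.8% of small RNAs. The rule used the counts themselves, so these shares carry no test.

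A count of 20 members stood in a list of immune genes and 5 in the list of satellite predicted genes, which leaves 118 in no list. All but 5 of the 17 coding members with 1000 or more counts were in an immune list. The exceptions were 3 satellite predicted genes, Clec2i (a C-type lectin gene) and Mbnl3 (a splicing regulator). The lists were chosen with earlier results of these data known, and they hold the marker genes given with the rule. The share of all genes that stand in an immune list was not computed. Membership of a list is therefore a description and no test. Below 1000 counts, 9 coding members chosen after their values were seen are known mainly from other tissues. They held 103 to 598 counts in Ezh2 replicate 3 and at most 37 in any other library. Bpifa2, a salivary secretory gene, had 598 counts beside 6 in Ezh2 replicate 1 and 0 in the other 4 libraries. Zp1 of the egg coat had 105 counts, Tnnt2 of cardiac muscle 141, and Dnah7a, Hydin and Pifo of cilia 327, 103 and 106. Which cells they came from was not tested.

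The most abundant member was Gm10800, a predicted gene built of the major satellite repeat of mouse centromeres, which sits beside Gm10801 on chromosome 2. Its level was 8.80, 6.98 and 13.8 CPM in GFP, 36.5 and 7.76 CPM in Ezh2 replicates 1 and 2, and 506.2 CPM in Ezh2 replicate 3. Gm10801 had 1.55 to 5.19 CPM in the others and 60.8 CPM in Ezh2 replicate 3, and Gm21738 on chromosome 14 had 0.622 to 2.45 and 40.5 CPM. In all 3 genes the highest of the other libraries was Ezh2 replicate 1. Gm26870 and Gm11168, which overlap on opposite strands of chromosome 9, had 309 and 249 counts in Ezh2 replicate 3. The satellite list as a whole summed to 625.3 CPM there and to between 9.76 and 45.6 CPM elsewhere.

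The 5 satellite members share sequence, so reads may have been divided among them. The first GENCODE M21 transcript of each holds a common run of 42 bases, in capitals, given with up to 30 bases on each side (Gm26870 as the reverse complement of its transcript).
Gm10800: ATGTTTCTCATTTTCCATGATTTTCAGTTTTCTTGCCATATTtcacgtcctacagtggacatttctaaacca
Gm10801: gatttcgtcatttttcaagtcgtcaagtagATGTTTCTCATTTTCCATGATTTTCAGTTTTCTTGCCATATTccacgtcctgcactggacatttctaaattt
Gm21738: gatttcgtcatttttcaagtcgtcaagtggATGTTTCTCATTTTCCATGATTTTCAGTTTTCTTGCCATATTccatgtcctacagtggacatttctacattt
Gm11168: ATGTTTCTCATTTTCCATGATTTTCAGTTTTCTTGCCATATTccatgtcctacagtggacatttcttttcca
Gm26870: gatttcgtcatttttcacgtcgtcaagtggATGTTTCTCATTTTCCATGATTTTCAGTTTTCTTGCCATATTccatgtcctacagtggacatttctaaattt
Of the 31-base words of Gm11168, 58.9% also occur in Gm26870, and their longest common run is 170 bases. For Gm10800 and Gm10801 these values are 29.0% and 86 bases. The levels of single satellite members are therefore uncertain, and the sum over them is the firmer value.

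Position tied some members together. When members within 100 kb were merged, the 143 fell into 127 loci, and 9 loci held 25 members. At Satb1, a chromatin organizer of T cells (chromosome 17, 51736187 to 51833290, minus strand), 6 members lay together. E430014B02Rik, C230085N15Rik, 5830444F18Rik and Gm37248 stand inside Satb1 on its strand without sharing its exons, Gm6934 overlaps a Satb1 exon on the opposite strand, and Gm37593 lies upstream of the gene. Satb1 itself had 761 to 1095 counts in the others and 5411 in Ezh2 replicate 3, 4.42 times the highest in CPM, and so was no member. Gm37248 had 0.883, 2.97 and 1.59 CPM in GFP, 1.21 and 1.08 CPM in Ezh2 replicates 1 and 2, and 29.8 CPM in Ezh2 replicate 3. These 6 members lie at 1 locus and should not be counted as 6 independent genes. They were 6.63 to 25.96 times the mean of Ezh2 replicates 1 and 2, beside 5.30 times for Satb1. Whether their reads came from Satb1 transcripts was not tested.

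Members also shared a locus at Il2ra and at Foxp3. Gm37881 (chromosome 2, 11683126 to 11683546) lies inside Il2ra on its strand without sharing its exons, and was 12.7 times the mean of Ezh2 replicates 1 and 2, beside 11.9 times for Il2ra. Flicr, a noncoding RNA that overlaps exons of Foxp3 on the same strand, was 7.89 times that mean, beside 9.02 times for Foxp3. Ppp1r3f, whose exons both overlap on the opposite strand, was 1.08 times. How the counting assigned reads shared by overlapping exons is not stated, so Flicr and Foxp3 are uncertain to that extent.

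Not all noncoding members followed a raised neighbor. Of the 81 members that are not protein coding, 39 overlapped a gene with 100 or more counts in Ezh2 replicate 3. In 12 the overlapping gene was 2-fold or more above the mean of Ezh2 replicates 1 and 2, and in 27 it was not, with a median fold of 0.988. Among 20 members inside a gene on the same strand that share none of its exons, 7 had a host at 2-fold or more, and 13 had hosts at 0.714 to 1.49 times. Exons of 28 members overlapped a gene on the opposite strand. The libraries were stranded, but whether counting used the strand is not given in the sources used here.

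**Figure D4:**
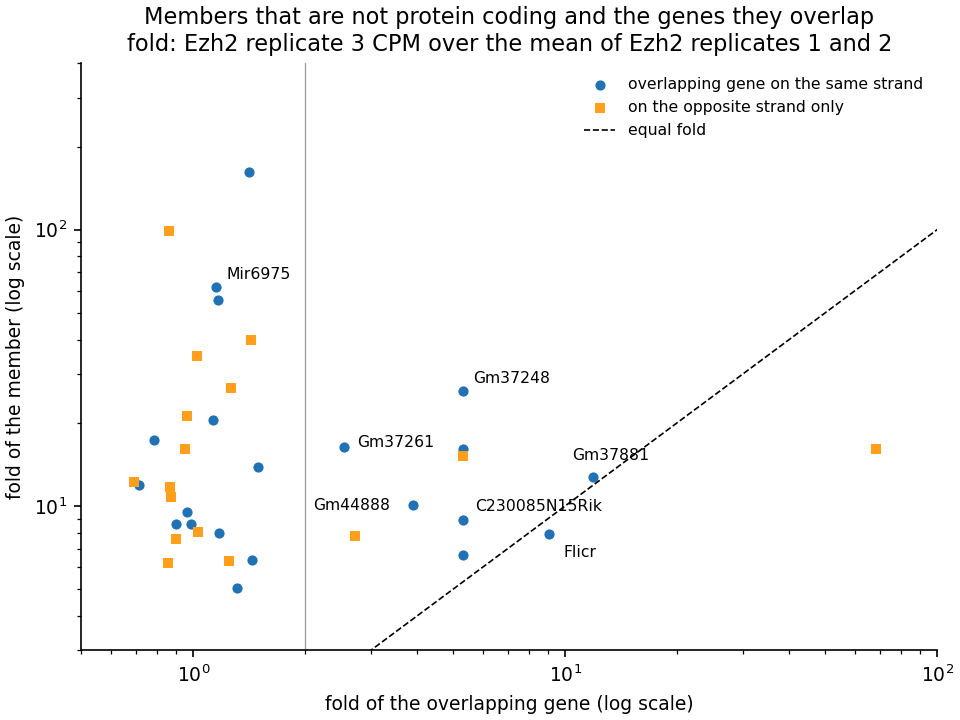
Fold in Ezh2 replicate 3 over the mean of Ezh2 replicates 1 and 2 for 38 members that are not protein coding (vertical axis, log scale) and for the most raised gene that each overlaps (horizontal axis, log scale), with the same strand in blue and the opposite strand only in orange. The vertical line marks 2-fold. Members at Il2ra and Foxp3 lie near the dashed line of equal fold, and a larger number lie at the left, over genes near 1-fold.

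Small RNAs were among the latter. Mir6975 (chromosome 17, 35244075 to 35244135, plus strand), inside Ddx39b, had 10, 3 and 1 counts in GFP, 3 and 4 in Ezh2 replicates 1 and 2, and 231 in Ezh2 replicate 3, while Ddx39b was 1.15 times its mean in Ezh2 replicates 1 and 2. Its mature arms from RefSeq (GRCm38.p6) follow, with the seed, bases 2 to 8, in capitals.
mmu-miR-6975-5p: gCUGGGGAgaaagggguuuggca
mmu-miR-6975-3p: uCUCUCCUuucuccuccuag
The seeds of the arms differ, and no other member is a miRNA gene. The counts are of reads over the hairpin gene in total RNA libraries and do not show which arm, if any, was mature. The snoRNA gene Gm24000 had 159 counts in Ezh2 replicate 3 and 1 elsewhere, a ratio of 139.9 with a 95% counting interval of 24.8 to 5560.

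T cell receptor segments were 4 of the 5 members of a locus on chromosome 14. Traj15, Traj6, Traj8 and Traj29 are joining segments of the receptor alpha chain, of which each T cell clone uses few. Traj8 is annotated as a pseudogene. Traj15 had 22, 33 and 39 counts in GFP, 23 and 19 in Ezh2 replicates 1 and 2, and 517 in Ezh2 replicate 3. Of 60 joining segments, 9 exceeded each other library over 2-fold in Ezh2 replicate 3, and 0 did in each of the other libraries. Traj15 alone held 22.4% of the joining segment counts there, while the leading segment of the other libraries held between 3.79% and 6.31%. Gm43305, a transcript on the opposite strand that the 100 kb merging joined to this locus, had 508 counts beside 5 in Ezh2 replicate 1 and 0 in the other 4. Among the symbols set aside, Trav7n-4 had 220 counts and 0 in all others, at least 62.3-fold above the floor of 3 counts per library.

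The members at 0 in all other libraries were Gm3126, Gm20615, Gm43522, 1700061E18Rik and Gm48471, all noncoding or pseudogenes. They held 229, 200, 176, 138 and 133 counts in Ezh2 replicate 3, at least 64.9-fold, 56.7-fold, 49.9-fold, 39.1-fold and 37.7-fold above the same floor. Of all genes, 27 had 10 or more counts in Ezh2 replicate 3 and 0 elsewhere, and the same count was 0 to 5 in the other libraries. Gm28438 had 295 counts beside at most 3, a ratio of 95.8 with a counting interval of 32.5 to 467.0. Gm5374 had 105 counts beside at most 1, a ratio of 94.0 with an interval of 16.5 to 3748, and Pifo had 106 beside at most 1, a ratio of 90.1 with an interval of 15.8 to 3591.

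Per length, the highest members in Ezh2 replicate 3 were Gm10800 at 2395 TPM, Traj15 at 748.2, Tnfrsf4 at 487.4, Traj8 at 431.8 and Tnfrsf18 at 397.1 TPM. Gm10801, Tnfrsf9, Mir6975, Traj6 and Irf4 followed, at 376.6 to 267.2 TPM. These Traj segments and Mir6975 are very short features, of 37 to 62 bases, so each count weighs heavily in their levels per length. They held 184 (Traj8) to 517 (Traj15) counts in Ezh2 replicate 3.

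Whether the members also differ between the groups without Ezh2 replicate 3 was then tested, since the rule did not set that direction. The rule did cap the level of each of these libraries relative to Ezh2 replicate 3. Genes raised strongly in all Ezh2 libraries were thus kept out of the members. A lack of calls among members is therefore partly shaped by the choice. Ezh2 replicates 1 and 2 were compared with GFP replicates 1 to 3 by the quasi-likelihood test of edgeR with Benjamini-Hochberg adjustment over all 20241 genes that passed the filter. A call needed an adjusted p under 0.05 and a fold above 1.5. Of all tested genes 2.45% were called higher and 1.27% lower, Ezh2 among the former (log2 fold change 1.17 ± 0.086 SE, adjusted p = 1.56e-07). Of the members 92 could be tested, and 0 were called in either direction. The median SE of these members was 0.454 on the log2 scale, so changes near the fold threshold could be missed. At an unadjusted p under 0.05 there were 13, of which 12 were higher and 1 lower, and DESeq2 likewise called 0, with 12 at an unadjusted p under 0.05. The 51 members left out had too few counts in these 5 libraries.

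On adjusted p alone, without the fold threshold, Irf4 (log2 fold change 0.295 ± 0.069 SE, adjusted p = 0.00742) and Tnfrsf18 (0.33 ± 0.086 SE, adjusted p = 0.0145) were higher in Ezh2 replicates 1 and 2. In both genes each of these libraries exceeded each GFP library. Foxp3 showed a log2 fold change of 0.00 ± 0.13 SE (adjusted p = 0.999) and Il2ra of 0.19 ± 0.12 SE (adjusted p = 0.31) by the same test. Gpr83 had a log2 fold change of 1.25 ± 0.42 SE (adjusted p = 0.0553) and Gm10800 of 1.16 ± 0.39 SE (adjusted p = 0.0539), both short of the threshold. The median over the 92 members was 0.18, beside -0.01 over all genes, and 63 of the 92 were above 0. Without Ezh2 replicate 1 the median was 0.068, and without Ezh2 replicate 2 it was 0.28.

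The lists that describe the cell source were read in the same fit. Of the 22 regulatory T cell core genes and the 20 genes of effector and tissue regulatory T cells, 0 were called in either direction. Over all tested genes 2.45% were called higher and 1.27% lower. At these shares lists of this size would hold few calls or 0, so their lack of calls says little. Of the 27 TNF receptors Eda2r and Tnfrsf26 were called higher, and neither was a member. Of the 27 pan T cell genes Cd8a and Cd8b1 were called higher. So were 2 of 14 naive and resting T cell genes, 4 of 29 costimulatory and inhibitory receptors and 5 of 42 activation transcription factors. The S phase list had 5 of 28 called higher, and the immediate early and dissociation list 9 of 16. Several lists of other cells held more calls. Called higher were 8 of 11 cone genes, 5 of 13 macrophage and monocyte genes and 4 of 11 rod genes. The same held for 4 of 15 cytotoxic and NK cell genes and 4 of 14 RGC genes, with 0 called lower in these lists. Of 11 gamma delta and type 17 genes 0 were called, and Tfap2b of the amacrine list was called lower. In the fit on all 6 libraries 0 members were called, although all 93 tested had a positive fold, and 51 had an unadjusted p under 0.05. That fit includes the values that chose the members and is given for completeness.

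**Figure D5:**
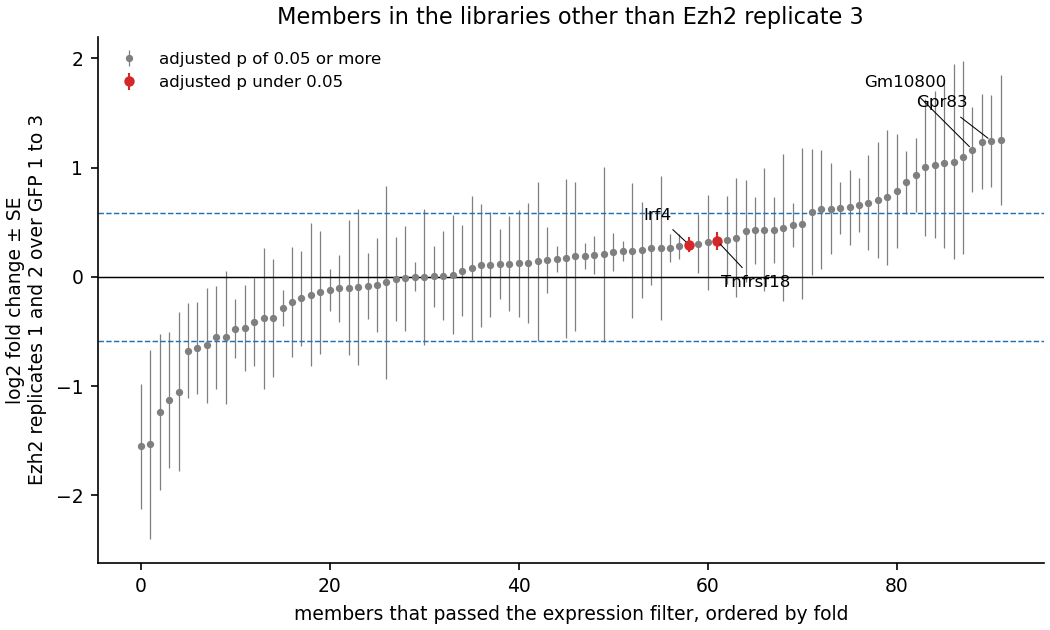
Log2 fold change of Ezh2 replicates 1 and 2 over GFP replicates 1 to 3, with its SE, for the 92 members that passed the expression filter, in order of size. Dashed lines mark a fold of 1.5 in each direction. The 2 members with an adjusted p under 0.05, Irf4 and Tnfrsf18, lie between 0 and the upper dashed line.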

How the data were processed

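RNA-Seq was made from total RNA with a stranded kit, per the labels. The authors deposited raw counts of reads for each Ensembl gene in 6 libraries. The submitters' processing notes name STAR 2.7.0d and GRCm38. The counting program, annotation release and strand setting are not given in the sources used here. In the study 1 Ezh2 library was excluded because it clustered apart, and that this was replicate 3 is inferred. Of 55573 identifiers, 55480 matched GENCODE M21, and 0 value columns lacked a sample.

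Members and gene lists were chosen with earlier results of these data known. CPM was computed on library totals, and TPM on summed exon length. The named genes were the 5 marker genes given with the rule, members in a list, the 10 members highest by ratio and by TPM, 4 genes on each side of the limit, members called in the test, and the leading 2 genes of other cell types. Any further gene was picked with its values known. A count of 0 allows up to 3 counts, which is 0.0834 to 0.0981 CPM, and such floors and the Poisson and binomial intervals cover counting error only. With 1 library there is no replicate check of the height of a member. Nothing says that replicates came from separate animals, so p-values measure the spread between libraries, which may be technical. Every pair of libraries in a group differed by more than sampling noise.

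For the 5 other libraries, counts were filtered with filterByExpr, scaled by TMM and fitted by edgeR 4.0.16 in R 4.3.3, with two-sided p-values and no covariate. The fit was tested on simulated counts. Alternatives were other limits and scalings of the rule, DESeq2 1.42.0, other size factors and filters, each library left out, all 6 libraries and a replicate block. Pictures were drawn with matplotlib 3.10.9.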

Additional observations from a re-analysis of the deposited data

How the results depend on the processing

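The rule gave 143 members on library totals, 152 with TMM factors and 157 with DESeq2 size factors, and all 143 were kept in both. It gave 268 at 3-fold, 74 at 10-fold, 168 with at least 50 counts and 92 with at least 200 counts. With each other library left out of the rule in turn it gave 143 to 154.

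In the 5 libraries, 0 members were called in either direction by edgeR, DESeq2, RLE factors, library totals alone and the fit on all 6 libraries. On adjusted p alone 2 were higher (Irf4 and Tnfrsf18). With no filter beyond 1 count, 7 of 138 tested were higher and 1 lower, and with a mean of at least 50 counts 1 of 24 was higher (Ccdc125). Leaving out 1 library gave 0 to 4 called higher and 0 to 1 called lower. Gpr83 was called without GFP replicate 1, Gm10800 higher and 4930524O07Rik lower without GFP replicate 3, Mapk11 without Ezh2 replicate 1, and Gm10800, Gm10801, Gm21738 and Gpr83 without Ezh2 replicate 2, where the lone sample of the group is assumed to vary like the others. The cause was not tested.

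The median log2 fold change of members, 0.18, ranged from 0.068 to 0.28 with 1 library left out and was 2.28 in all 6 libraries, which hold the values that chose the members. Ezh2 stayed called, at 1.05 to 1.28 with 1 library left out and 1.41 in all 6.

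Replicate numbers are shared by the groups, but same-numbered libraries did not deviate together (correlations of -0.013, -0.015 and -0.0076). With so few libraries this cannot exclude that same-numbered libraries were handled together. With the replicate block, 3 members were called higher (Ccdc125, Gm10800 and Gm10801) and 1 lower (4930524O07Rik) in 5 libraries, with a median of 0.21, and 0 in all 6, with a median of 1.38. Ezh2 was 1.19 and 1.38.

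List medians kept their sign in 221 of 228 comparisons over 38 sets of genes. The 7 exceptions were the cytotoxic, plasma cell, macrophage and cone lists against GFP, the cytotoxic and group 2 innate lymphoid lists without Ezh2 replicate 1, and the RGC list at a mean of at least 50 counts (-0.012). TMM in place of totals moved all genes by 0.07 on the log2 scale.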
